A study of Mus musculus with 9 samples.

Results

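The genes of the DNA replication machinery were examined as a set of 39, listed by symbol with earlier results of these data known, among the 38215 genes of the deposited table. All 39 were present once and all 39 were among the 14944 genes with enough counts to test. RNA had been sequenced from bone marrow LSK cells (no lineage markers, with Sca1 and Kit), the fraction that holds haematopoietic stem cells and multipotent progenitors. All 9 mice were C57BL/6J, had received tamoxifen and carried Jak2V617F, an activating mutation of the kinase Jak2 found in myeloproliferative neoplasms, and cells with GFP and mCherry together were sorted. The 5 mice of the comparison group have EV in their titles and the genotype Jak2V617F alone, so the control cells carry the disease mutation too. The 4 others have the genotype Jak2V617F-sgZrsr2 and are described in the series' design as having lost Zrsr2, a splicing factor that acts on the rare U12-type introns. The labels spell out neither EV nor sg, and give no age, no Cre driver and no wild-type group. Each sample was 1 library from 1 mouse, numbered in its title.

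Before a cell divides it must copy its genome once. The origin recognition complex, with Cdc6 and Cdt1, loads rings of Mcm2 to Mcm7 onto DNA in G1, and Cdc45 and the GINS complex turn these rings into active helicases at the start of S phase. Primase and polymerase alpha lay down primers, the clamp Pcna is loaded by replication factor C, and polymerases delta and epsilon copy the strands, while ribonucleotide reductase and thymidylate synthase supply nucleotides. Many of these genes are known targets of E2F transcription factors and are transcribed most in late G1 and S phase. Long-term stem cells in the LSK fraction are mostly quiescent and multipotent progenitors cycle more, so the level of these genes in the bulk fraction reflects both the share of cycling cells and the RNA per cell. Bulk libraries do not tell fewer such cells from less RNA in each.

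Promoters of 6 members are shown first. Promoter letters were not used to list the members, and 16 of the 32 members with a promoter window held an E2F match. Orc1, Mcm5 and Mcm6 hold matches to the E2F motif, Pcna was the member with the most RNA per length, and Rfc4 and Rpa3 were 2 of the 3 members with an unadjusted p under 0.05. Each is the 250 bases before the RefSeq transcription start (GRCm38.p6), 5′ to 3′ on the gene's strand, with E2F matches and CCAAT boxes in capitals: Orc1 is chr4:108579204-108579453 on the plus strand, Mcm5 is chr8:75109259-75109508 on the plus strand, Mcm6 is chr1:128359706-128359955 on the minus strand, Pcna is chr2:132253181-132253430 on the minus strand, Rfc4 is chr16:23127731-23127980 on the minus strand, Rpa3 is chr6:8259142-8259391 on the minus strand.
Orc1: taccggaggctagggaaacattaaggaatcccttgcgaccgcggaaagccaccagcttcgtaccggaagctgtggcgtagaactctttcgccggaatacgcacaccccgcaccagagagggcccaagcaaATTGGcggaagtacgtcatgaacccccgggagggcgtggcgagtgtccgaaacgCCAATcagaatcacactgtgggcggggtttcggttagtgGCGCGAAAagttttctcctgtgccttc
Mcm5: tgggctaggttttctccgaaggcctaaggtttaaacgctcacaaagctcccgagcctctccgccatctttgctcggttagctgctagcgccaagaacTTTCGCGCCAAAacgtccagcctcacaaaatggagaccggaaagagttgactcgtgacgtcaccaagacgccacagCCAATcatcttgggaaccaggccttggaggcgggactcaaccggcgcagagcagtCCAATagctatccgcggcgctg
Mcm6: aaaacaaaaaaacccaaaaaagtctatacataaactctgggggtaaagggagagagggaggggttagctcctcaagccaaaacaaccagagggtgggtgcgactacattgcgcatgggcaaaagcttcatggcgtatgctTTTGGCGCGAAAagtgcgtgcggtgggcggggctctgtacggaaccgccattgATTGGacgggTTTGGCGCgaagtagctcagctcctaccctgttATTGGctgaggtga
Pcna: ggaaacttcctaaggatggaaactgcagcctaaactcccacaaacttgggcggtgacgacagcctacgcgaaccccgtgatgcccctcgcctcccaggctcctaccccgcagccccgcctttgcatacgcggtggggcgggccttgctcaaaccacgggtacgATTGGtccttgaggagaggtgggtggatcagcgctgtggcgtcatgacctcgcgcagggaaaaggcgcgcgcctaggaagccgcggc
Rfc4: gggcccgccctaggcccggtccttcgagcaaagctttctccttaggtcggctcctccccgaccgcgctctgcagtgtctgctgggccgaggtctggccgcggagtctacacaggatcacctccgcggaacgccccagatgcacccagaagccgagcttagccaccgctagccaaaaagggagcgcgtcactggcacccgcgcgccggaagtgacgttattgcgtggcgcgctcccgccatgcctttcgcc
Rpa3: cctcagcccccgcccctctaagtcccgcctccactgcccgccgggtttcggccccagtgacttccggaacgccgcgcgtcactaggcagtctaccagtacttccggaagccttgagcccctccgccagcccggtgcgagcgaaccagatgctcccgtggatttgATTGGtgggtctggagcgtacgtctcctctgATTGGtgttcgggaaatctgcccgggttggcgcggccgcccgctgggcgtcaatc

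The E2F motif was searched as TTTCGCGC, TTTGGCGC, TTTCCCGC and TTTGGCGG, the CCAAT box as CCAAT and the cell cycle homology region (CHR) of mitotic genes as TTTGAA, each on both strands, in windows of 300 bases from 250 before to 50 after the start. Matches on opposite strands may overlap, as they do in Mcm5 and Mcm6, and each was counted. Of the 39 members 32 had a window, and 16 of these (50%) held an E2F match, against 2.7% of 27025 genes with a window. The match was not particular to the members: of 49 other replication genes 39 had a window, and 13 of these (33.3%) held one. Of the 20 mitosis genes listed for comparison 18 had a window, and 1 of these (5.56%) held an E2F match. The CHR letters were in 13 of the 18 mitosis windows (72.2%), in 5 of the 32 member windows (15.6%) and in 20.2% of all. A CCAAT box was in 21 of the 32 member windows (65.6%), 19 of the 39 other replication windows (48.7%), 16 of the 18 mitosis windows (88.9%) and 41.1% of all. In the printed windows Mcm6 has 3 E2F matches, Mcm5 has 2, Orc1 has 1, and Pcna, Rfc4 and Rpa3 have 0. A match is a string of letters and not a shown binding site.

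**Figure D1:**
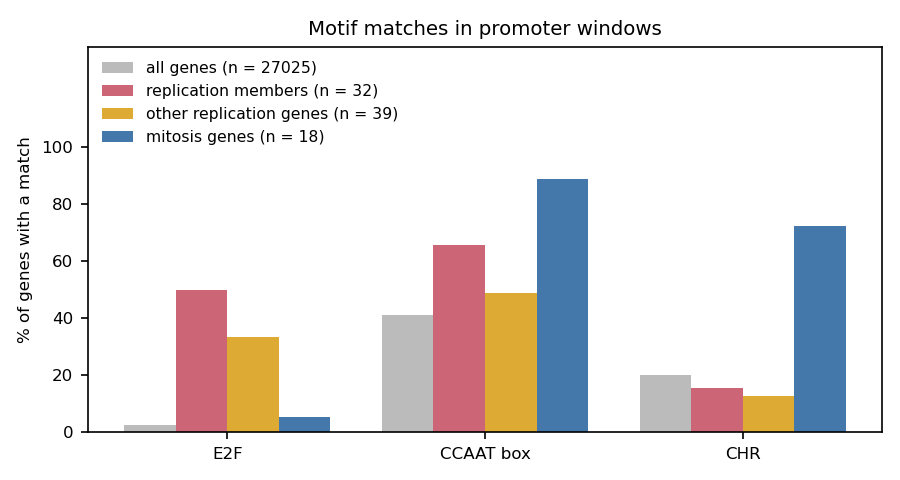
Share of genes (y axis, %) whose promoter window of 300 bases holds a match to the E2F motif, the CCAAT box or the CHR, for all genes, the replication members, other replication genes and mitosis genes. The E2F letters were in 50% of member windows and 33.3% of windows of other replication genes, against 2.7% of all. The CHR letters were in 72.2% of mitosis windows against 20.2% of all.

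The libraries held 23238264 to 45585531 expected counts. Zrsr2 was at 50.6 to 62.2 CPM (counts scaled to library size with TMM factors) in the EV libraries and at 31.7 to 44.4 CPM in the sgZrsr2 libraries, so the targeted gene was lower in all 4, although its fold change did not pass (log2 -0.46, SE 0.12, edgeR adjusted p = 0.714). The genes of the 2 positive gate markers were present in every library, Kit at 247 to 632 CPM and Ly6a (Sca1) at 14.8 to 49.3 CPM. Cd34 and Flt3, which are not part of the gate described above, were present in every library too. A set of 3 libraries stood apart in genes of other lineages: the erythroid gene Car1 was at 25.4 CPM in EV mouse 5, 39.3 CPM in sgZrsr2 mouse 3 and 35.5 CPM in sgZrsr2 mouse 5, and at 0 to 0.422 CPM in the other 6.

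No member passed the genome-wide test for a difference between sgZrsr2 and EV (edgeR quasi-likelihood test, Benjamini-Hochberg adjusted over 14944 genes). The adjusted p ran from 0.714 to 0.996, and 0% of all genes passed. At an unadjusted p under 0.05 there were 3 members, Cdc45, Rfc4 and Rpa3, each lower with sgZrsr2, and 0 higher; over all genes 2.98% were lower and 3.87% higher at that level, and 6.85% in all. The log2 fold change was below 0 in 34 of the 39 members and above 0 in 5 (Orc6, Cdt1, Rfc3, Pole and Pold3), against 51.5% of all genes below 0. The median over the members was -0.18, with a range of -0.42 to 0.06, beside -0.01 over all genes tested. In 2 members, Rfc1 and Rpa3, the groups did not overlap and sgZrsr2 was lower, against 1.32% of all genes lower without overlap and 3.06% in either direction. DESeq2's Wald test also had 3 members at an unadjusted p under 0.05, against 8.53% of all genes in that test, and 0 past the adjusted threshold, where it called 16 genes in all. Limma-voom called 0 genes.

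Most of the low values came from a single library: sgZrsr2 mouse 3 was the lowest of the 9 libraries in 35 of the 39 members, where it was lowest in 20.9% of all genes. It lay below the whole EV range in 37 of the 39 members, with Rfc2 and Gins3 as the others, against 26.8% of all genes. Its median difference from the EV mean was -0.59 in log2 CPM over the members and 0.04 over all genes. The same median was -0.00, -0.05 and -0.09 in sgZrsr2 mice 1, 2 and 5, within the -0.14 to 0.13 of the 5 EV libraries. In sgZrsr2 mouse 1, 7 members lay below the EV range and 6 above it (18.9% and 17.5% of all genes). In mouse 2 these were 10 and 4 (16.8% and 16.7%), and in mouse 5 they were 12 and 1 (17.8% and 17.8%), so more members lay below than above there too. On the EV side, mice 3 and 4 were each the highest of the 9 libraries in 12 members, against 20.2% and 14% of all genes. Without sgZrsr2 mouse 3 the median log2 fold change of the members was -0.06, with 25 below 0 and 14 above, beside -0.03 over all genes, and no member had an unadjusted p under 0.05 in edgeR, against 4.94% of all genes.

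**Figure D2:**
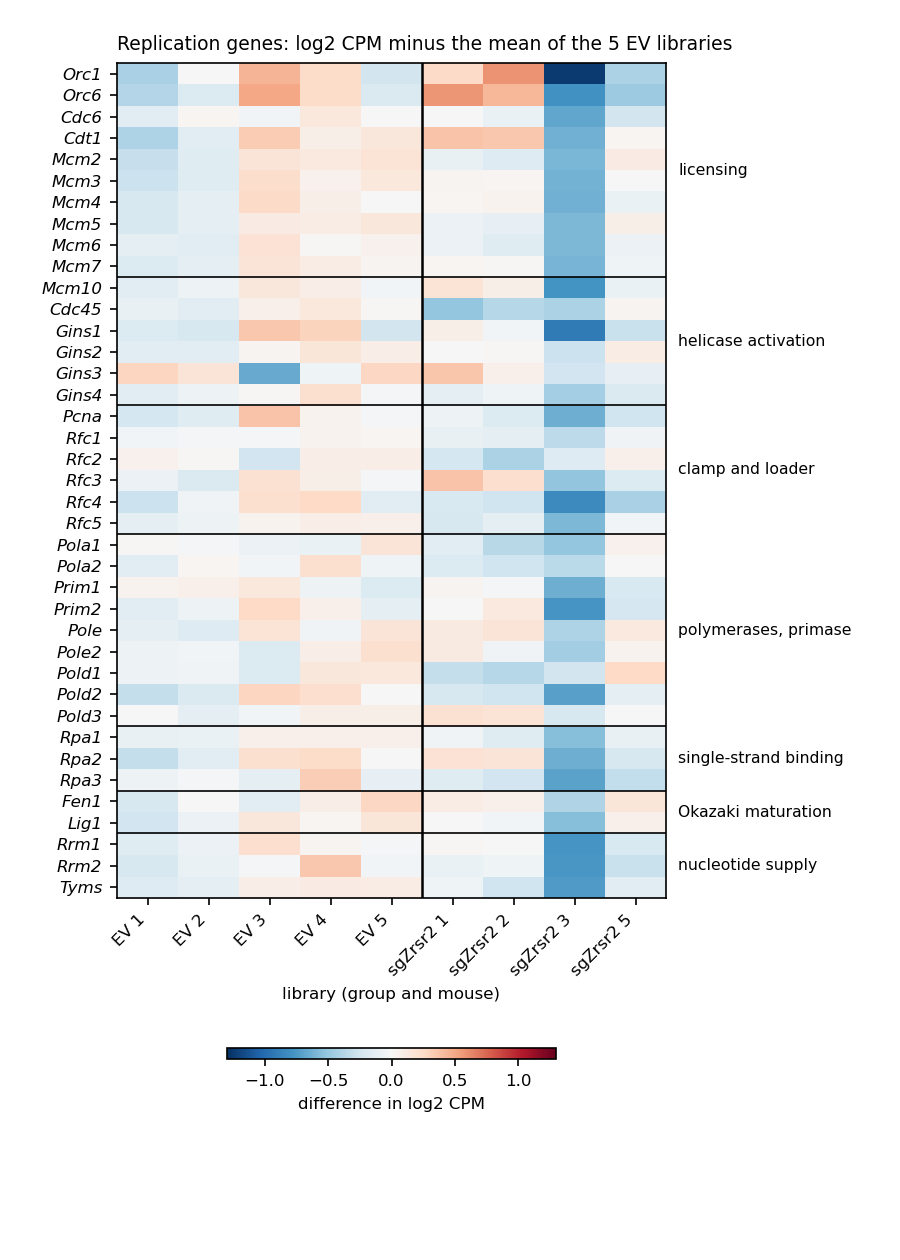
Heatmap of the 39 members (rows, by role) in the 9 libraries (columns): log2 CPM minus the mean of the 5 EV libraries, blue for lower and red for higher. The column of sgZrsr2 mouse 3 is blue through nearly all rows (median -0.59). The medians of sgZrsr2 mice 1, 2 and 5 (-0.00, -0.05 and -0.09) lie within those of the EV columns. In these 3 columns 7, 10 and 12 members lie below the EV range and 6, 4 and 1 above it.

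**Figure D3:**
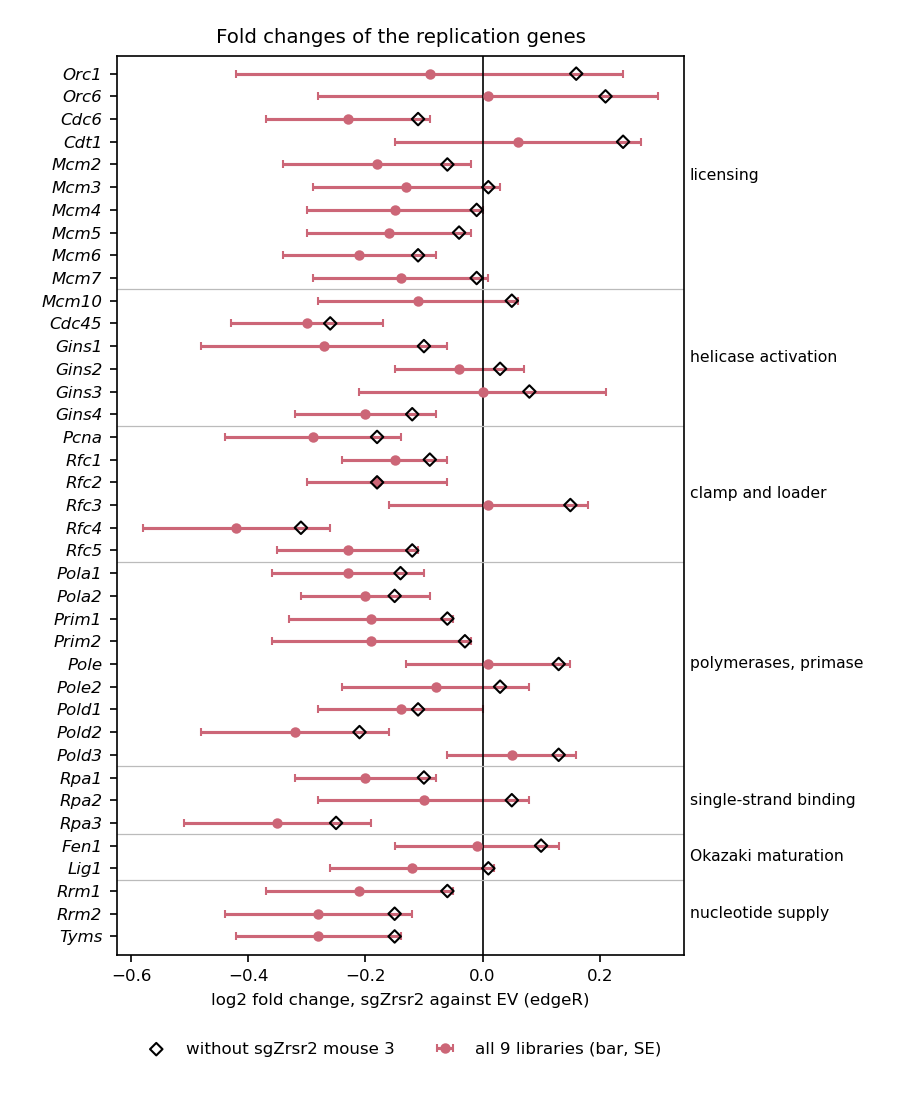
Log2 fold change of each member with sgZrsr2 against EV (x axis; filled points with SE bars, all 9 libraries) and without sgZrsr2 mouse 3 (open diamonds). With all libraries 34 of 39 points lie below 0; without that library 25 do, and the diamonds cluster nearer 0.

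Among the licensing genes, 8 of 10 had a log2 fold change below 0 (median -0.14) and 10 of 10 had their lowest value in sgZrsr2 mouse 3. Mcm6, a subunit of the helicase ring (ENSMUSG00000026355, chromosome 1, 128331591 to 128359656, minus strand, GRCm38), had the highest CPM of the 39: 571, 561, 705, 628 and 647 CPM in the EV libraries (mice 1 to 5) and 588, 555, 414 and 589 CPM in the sgZrsr2 libraries (mice 1, 2, 3 and 5). Its means were 622 ± 58.9 CPM (SD, n = 5) against 536 ± 83 CPM (SD, n = 4), with a log2 fold change of -0.21 (SE 0.13, edgeR adjusted p = 0.728) and an exact permutation p of 0.127. The sgZrsr2 libraries of mice 1, 2 and 5 lay at or near the low end of the EV range, and mouse 3 lay well under it at 71.7% of the mean of those 3.

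The other ring subunits were also lowest in sgZrsr2 mouse 3, but their other sgZrsr2 libraries all lay inside the EV range. Mcm2 was at 323, 356, 445, 433 and 449.7 CPM in the EV libraries (mice 1 to 5) and 373, 355, 264 and 427 CPM in the sgZrsr2 libraries (mice 1, 2, 3 and 5). Mcm3 was at 368, 401, 524, 464 and 492 CPM in the EV libraries (mice 1 to 5) and 457, 455, 292 and 445 CPM in the sgZrsr2 libraries (mice 1, 2, 3 and 5). Mcm4 was at 249, 265, 341, 305 and 289.7 CPM in the EV libraries (mice 1 to 5) and 294, 297, 186 and 271 CPM in the sgZrsr2 libraries (mice 1, 2, 3 and 5). In all 3 the groups overlapped, since sgZrsr2 mice 1, 2 and 5 fell inside the EV range and only mouse 3 fell below it. Mcm5 was at 371, 393, 461, 458 and 476 CPM in the EV libraries (mice 1 to 5) and 406, 398, 286 and 452 CPM in the sgZrsr2 libraries (mice 1, 2, 3 and 5). Mcm7 was at 444, 463, 565, 536 and 513 CPM in the EV libraries (mice 1 to 5) and 511, 508, 329 and 484 CPM in the sgZrsr2 libraries (mice 1, 2, 3 and 5); its gene overlaps Cops6 and Ap4m1 on the other strand, and its counts were whole numbers in only 2 of the 9 libraries, so some of its reads were shared. For Mcm2, Mcm3, Mcm4, Mcm5 and Mcm7 the log2 fold changes were -0.18, -0.13, -0.15, -0.16 and -0.14 (SE 0.14 to 0.16; edgeR adjusted p 0.778 to 0.842). In sgZrsr2 mouse 3 the 6 subunits were at 64.6% to 71.7% of the mean of the other sgZrsr2 libraries, so the ring genes were low together and by a like share.

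Of the factors that load the ring, Cdc6, the ATPase that brings it to origins, had the smallest unadjusted edgeR p of the licensing group. It was at 73, 81.6, 78, 88.3 and 80.7 CPM in the EV libraries (mice 1 to 5) and 80, 75.6, 50.1 and 68.1 CPM in the sgZrsr2 libraries (mice 1, 2, 3 and 5), a log2 fold change of -0.23 (SE 0.14, edgeR adjusted p = 0.72), and its exact permutation p was 0.111. Orc1, Orc6 and Cdt1 behaved differently from the ring: their highest values of all 9 libraries were in sgZrsr2 mouse 1 or 2 and their lowest in sgZrsr2 mouse 3. Orc1, the largest origin recognition subunit, was at 17.9, 23.9, 32.6, 28.3 and 20.3 CPM in the EV libraries (mice 1 to 5) and 28.5, 36.1, 10.1 and 18.1 CPM in the sgZrsr2 libraries (mice 1, 2, 3 and 5). The spread was widest there, with the highest library at 3.57 times the lowest, and sgZrsr2 mouse 3 at 36.6% of the mean of the other sgZrsr2 libraries. Orc6, its smallest subunit, ran from 29.2 CPM in sgZrsr2 mouse 3 to 74.8 CPM in sgZrsr2 mouse 1. Cdt1, the loader that geminin holds in check, ran from 101 CPM in sgZrsr2 mouse 3 to 201 CPM in sgZrsr2 mouse 1. Their log2 fold changes of -0.09, 0.01 and 0.06 (SE 0.33, 0.29 and 0.21) average over this spread, and without sgZrsr2 mouse 3 they were 0.16, 0.21 and 0.24. The expected counts of Orc1 and Cdc6 were whole in 1 of 9 libraries each, and Cdt1 overlaps Gm20388 on its own strand.

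The 6 helicase activation genes all had a log2 fold change at or below 0 (median -0.16), and 4 had their lowest value in sgZrsr2 mouse 3. Cdc45, which joins the ring and GINS in the active helicase (ENSMUSG00000000028, chromosome 16, 18780447 to 18811987, minus strand), was at 49.4, 47.9, 55.4, 58.2 and 53.4 CPM in the EV libraries (mice 1 to 5) and 37.2, 40.7, 39.6 and 54.1 CPM in the sgZrsr2 libraries (mice 1, 2, 3 and 5). Here the low libraries were sgZrsr2 mice 1, 2 and 3 alike, all under the EV range, while mouse 5 was inside it. The means were 52.9 ± 4.22 CPM (SD, n = 5) against 42.9 ± 7.6 CPM (SD, n = 4), with a log2 fold change of -0.30 (SE 0.13, edgeR adjusted p = 0.714), an unadjusted p of 0.0391 and an exact permutation p of 0.0635. Without sgZrsr2 mouse 3 its log2 fold change was -0.26, so it depended less on that library than the ring genes did. Cdc45 overlaps Ufd1l on the other strand, and no source says that reads were assigned by strand.

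Gins2, the GINS subunit with the most counts, was at 114, 114, 129, 139.8 and 133 CPM in the EV libraries (mice 1 to 5), at 127, 103 and 134 CPM in sgZrsr2 mice 2, 3 and 5, and in sgZrsr2 mouse 1 just under mouse 2, a log2 fold change of -0.04 (SE 0.11, edgeR adjusted p = 0.934). Mouse 3 alone lay under the EV range. Its reads overlap those of Gse1 and Gm20388 on the other strand and its counts were whole in 0 of 9 libraries, so its level is uncertain. Mcm10, a helicase activator, was at 51.7 CPM in sgZrsr2 mouse 3 and 80.9 to 100.2 CPM in the other 8 libraries. Gins1 was at 20.4 CPM there and at 31.6 to 49.3 CPM elsewhere. Gins4 was at 31.2 CPM there and at 37.3 to 49 CPM elsewhere. Gins3 departed from the set, with its lowest value of 13.2 CPM in EV mouse 3 and 17.5 CPM in sgZrsr2 mouse 3.

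Pcna, the sliding clamp that tethers the polymerases (ENSMUSG00000027342, chromosome 2, 132249162 to 132253314, minus strand), was at 417, 437, 631, 503 and 481 CPM in the EV libraries (mice 1 to 5) and 467, 430.5, 315 and 407 CPM in the sgZrsr2 libraries (mice 1, 2, 3 and 5). The means were 494 ± 83.7 CPM (SD, n = 5) against 405 ± 64.9 CPM (SD, n = 4), a log2 fold change of -0.29 (SE 0.15, edgeR adjusted p = 0.714); the groups overlapped, with EV mouse 3 highest and sgZrsr2 mouse 3 lowest. Its counts were whole in 0 of 9 libraries, so part of its reads were shared with other sequences. Of the clamp loader genes, 4 of 5 had a log2 fold change below 0. Rfc4, a small loader subunit (ENSMUSG00000022881, chromosome 16, 23113943 to 23127737, minus strand), had the lowest log2 fold change of the 39 and was at 31.7, 37.6, 44.6, 46.1 and 35.2 CPM in the EV libraries (mice 1 to 5) and 33.6, 32.4, 21.8 and 28.8 CPM in the sgZrsr2 libraries (mice 1, 2, 3 and 5). All 4 sgZrsr2 libraries were below EV mice 2 to 5, and those of mice 1 and 2 were above EV mouse 1, so the groups overlapped. The means were 39 ± 6.15 CPM (SD, n = 5) against 29.1 ± 5.31 CPM (SD, n = 4), a log2 fold change of -0.42 (SE 0.16, edgeR adjusted p = 0.714), with an exact permutation p of 0.0476.

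Rfc4 overlaps Eif4a2, on the other strand, and its counts were whole in 0 of 9 libraries, as were those of Rfc5, which overlaps Wsb2. Without sgZrsr2 mouse 3 the log2 fold change of Rfc4 was -0.31. Rfc1, the large loader subunit (ENSMUSG00000029191, chromosome 5, 65261852 to 65335670, minus strand), was at 153, 155, 154, 162 and 159 CPM in the EV libraries (mice 1 to 5) and 146, 144, 124 and 152 CPM in the sgZrsr2 libraries (mice 1, 2, 3 and 5). The groups did not overlap (exact permutation p = 0.0159, the smallest that 5 against 4 libraries can give), but the step was small: 157 ± 3.85 CPM (SD, n = 5) against 141 ± 12.4 CPM (SD, n = 4), a log2 fold change of -0.15 (SE 0.09, edgeR adjusted p = 0.732). Its counts were whole in all 9 libraries. Rfc2 was the one loader gene not low in sgZrsr2 mouse 3, at 161 CPM there, with 136 CPM for sgZrsr2 mouse 2 and 152 CPM in EV mouse 3. Rfc3 was at 34.5 CPM in sgZrsr2 mouse 3 and reached 63.5 and 57.2 CPM with sgZrsr2 in mice 1 and 2, the latter values above the EV range of 43.2 to 56.5 CPM. Rfc5 was at 79.6 CPM in sgZrsr2 mouse 3 and at 103 to 127 CPM elsewhere.

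Of the 9 polymerase and primase genes, 7 had a log2 fold change below 0 (median -0.19) and 8 had their lowest value in sgZrsr2 mouse 3. Pold2, an accessory subunit of polymerase delta with the smallest unadjusted edgeR p of this group, was at 89.6, 97.6, 135, 129 and 112 CPM in the EV libraries (mice 1 to 5) and 96, 93.4, 68.5 and 102 CPM in the sgZrsr2 libraries (mice 1, 2, 3 and 5). The groups overlapped. The means were 113 ± 19.7 CPM (SD, n = 5) against 90.1 ± 14.9 CPM (SD, n = 4), a log2 fold change of -0.32 (SE 0.16, edgeR adjusted p = 0.714), with an exact permutation p of 0.127. Pold1, the catalytic subunit, had the most counts of the group and a different order: 209.6, 214, 195, 244 and 242 CPM in the EV libraries (mice 1 to 5) and 178, 171, 187 and 264 CPM in the sgZrsr2 libraries (mice 1, 2, 3 and 5). Its low libraries were sgZrsr2 mice 1, 2 and 3, and its highest was sgZrsr2 mouse 5, which gave a log2 fold change of -0.14 (SE 0.14, edgeR adjusted p = 0.806). Pold3 varied little, from 83.6 CPM in sgZrsr2 mouse 3 to 111 CPM in sgZrsr2 mouse 1.

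Pole, the catalytic subunit of polymerase epsilon, was at 142 to 179.9 CPM in the EV libraries, at 173 to 178 CPM in sgZrsr2 mice 1, 2 and 5 and at 120.4 CPM in sgZrsr2 mouse 3. Pole2, its accessory subunit, was low in level, at 12.8 CPM in sgZrsr2 mouse 3 and at 15.4 to 20.1 CPM elsewhere. Pola1, the catalytic subunit of polymerase alpha, was below the EV range of 115 to 137 CPM in sgZrsr2 mice 1, 2 and 3 (110.5, 95.2 and 86.3 CPM) and inside it in mouse 5 (127 CPM). Pola2 had 79 to 101 CPM with sgZrsr2 and 90.7 to 117 CPM with EV. The primase genes were lowest in sgZrsr2 mouse 3, Prim1 at 52.7 CPM and Prim2 at 28.9 CPM. In the other 8 libraries Prim1 was at 71.6 to 89.9 CPM and Prim2 at 42.1 to 58.8 CPM.

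Rpa1, Rpa2 and Rpa3 encode the trimer that coats single-stranded DNA, and all 3 had a log2 fold change below 0. Rpa3, the smallest subunit (ENSMUSG00000012483, chromosome 6, 8255936 to 8259173, minus strand), was at 20.2, 20.9, 19.4, 26.4 and 19.7 CPM in the EV libraries (mice 1 to 5) and 19, 17.8, 13 and 17 CPM in the sgZrsr2 libraries (mice 1, 2, 3 and 5). The groups did not overlap, although sgZrsr2 mouse 1 lay just under EV mouse 3 and the EV mean was raised by EV mouse 4. The means were 21.3 ± 2.91 CPM (SD, n = 5) against 16.7 ± 2.59 CPM (SD, n = 4), a log2 fold change of -0.35 (SE 0.16, edgeR adjusted p = 0.714), with an unadjusted p of 0.0485 and an exact permutation p of 0.0159. Without EV mouse 4 no member had an unadjusted p under 0.05, against 4.12% of all genes. Rpa3 rested on 427 to 1190 counts per library. Rpa1, the large subunit, was at 192, 194, 215, 215 and 215 CPM in the EV libraries (mice 1 to 5) and 199.9, 185, 141 and 192 CPM in the sgZrsr2 libraries (mice 1, 2, 3 and 5). Rpa2 was above the EV median of 110.4 CPM in sgZrsr2 mice 1 and 2 and at 71 CPM in mouse 3.

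Lig1, the ligase that seals Okazaki fragments, was at 186, 209, 245, 225 and 246 CPM in the EV libraries (mice 1 to 5) and 222, 216, 150.1 and 231 CPM in the sgZrsr2 libraries (mice 1, 2, 3 and 5), a log2 fold change of -0.12 (SE 0.14, edgeR adjusted p = 0.838). Fen1, the nuclease that trims their flaps, was at 102 CPM in sgZrsr2 mouse 3 and at 115 to 160.2 CPM elsewhere; it overlaps 1810006K21Rik and Gm10143 on the other strand and its counts were whole in 0 of 9 libraries. Nucleotide supply had the lowest median of the role groups (-0.28), and its 3 genes were all lowest in sgZrsr2 mouse 3. Rrm1, the large subunit of ribonucleotide reductase, was at 338, 357, 438, 386 and 374 CPM in the EV libraries (mice 1 to 5) and 381, 377, 222 and 329 CPM in the sgZrsr2 libraries (mice 1, 2, 3 and 5). Its sgZrsr2 mouse 3 value was 61.2% of the mean of the other sgZrsr2 libraries. Tyms, thymidylate synthase, was at 68.9, 71, 81.9, 83.1 and 82.8 CPM in the EV libraries (mice 1 to 5) and 74.6, 64.8, 46.5 and 70.2 CPM in the sgZrsr2 libraries (mice 1, 2, 3 and 5), a log2 fold change of -0.28 (SE 0.14, edgeR adjusted p = 0.714) and an exact permutation p of 0.0794. Rrm2, the regulated small subunit of the reductase, was at 88.5 CPM in sgZrsr2 mouse 3 and at 122 to 191 CPM elsewhere.

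Levels of different members can be compared only per transcript length, here as CPM per kb of the principal transcript averaged over the 9 libraries. Pcna was highest at 299 CPM per kb, followed by Mcm6 at 201, Mcm7 at 163, Mcm3 at 143, Mcm5 at 122 and Mcm2 at 113 CPM per kb. Rrm1, of nucleotide supply, came next at 89 CPM per kb. Mcm4, which sits in the ring in equal number with the other 5 subunits, was at 77.3 CPM per kb. Licensing factors that act at origins were lower, from 73.6 CPM per kb for Cdt1 to 7.96 for Orc1. The helicase activation genes were at 8.52 (Gins3) to 33.5 CPM per kb (Gins1), and the polymerase and primase genes at 10 (Pole2) to 62.4 (Pold2). These levels depend on the transcript taken as principal, and genes that share reads are uncertain.

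**Figure D4:**
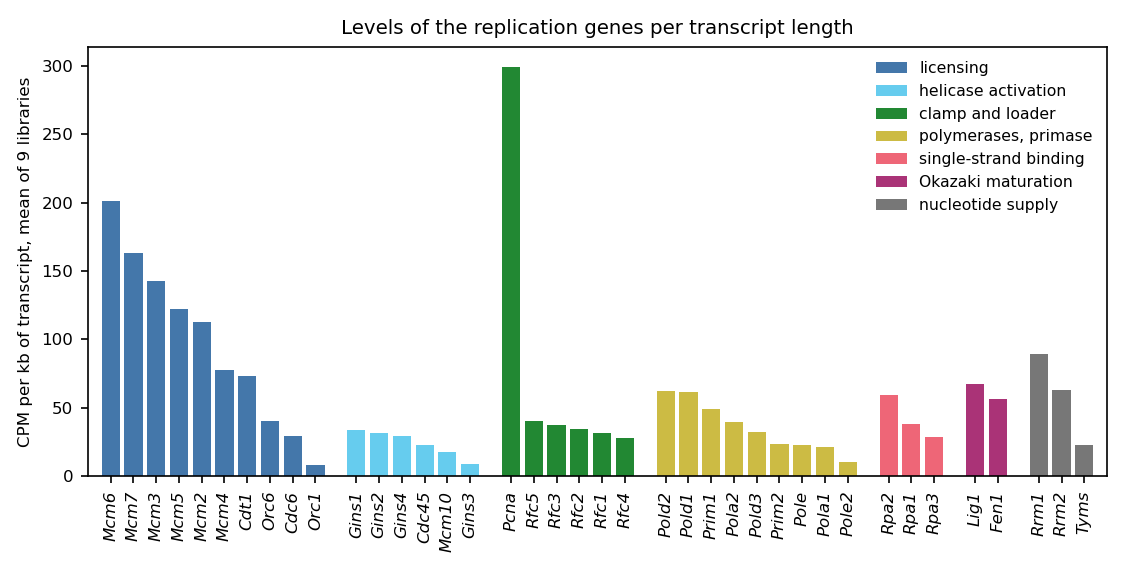
Mean level of each member over the 9 libraries in CPM per kb of its principal transcript (bars, grouped by role). Pcna (299) had the highest level and Orc1 (7.96) the lowest; the ring subunits Mcm2 to Mcm7 were at 77.3 to 201, with Rrm1 (89) between Mcm4 and Mcm2.

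Replication genes that are not members were also mostly lowest in sgZrsr2 mouse 3. Of 49 listed genes, all tested, 38 had a log2 fold change below 0 and 11 above (median -0.10), 35 had their lowest value in sgZrsr2 mouse 3, and 0 passed the adjusted threshold. At an unadjusted p under 0.05 there were 5 lower (Donson, Mcm8, Top1, Recql4 and Chtf18) and 0 higher, against 2.98% and 3.87% of all genes. The groups did not overlap in 2 of the 49, Donson and Top1, against 1.32% of all genes lower without overlap. Donson, a replisome factor, was at 22.1, 23.1, 20.9, 23.7 and 20.9 CPM in the EV libraries (mice 1 to 5) and 15, 13.8, 16.6 and 19.4 CPM in the sgZrsr2 libraries (mice 1, 2, 3 and 5). These groups did not overlap, and mouse 3 was not the lowest (log2 fold change -0.45, SE 0.14, edgeR adjusted p = 0.714). Top1, the topoisomerase that relaxes DNA ahead of forks, was at 186 to 259.5 CPM with EV and at 171 to 177 CPM with sgZrsr2, also without overlap (-0.32, SE 0.11, edgeR adjusted p = 0.714). Mcm8, a relative of the ring subunits that acts in repair, was at 19.8 to 31.4 CPM with EV and 15.6 to 22.1 CPM with sgZrsr2 (-0.51, SE 0.18, edgeR adjusted p = 0.714).

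For comparison, of 20 genes of mitosis 5 had their lowest value in sgZrsr2 mouse 3, near the 20.9% of all genes. Their mean log2 CPM there was 6.46, inside the EV range of 6.20 to 6.88, while that of the replication members was 6.25, below the EV range of 6.67 to 6.94. EV mouse 3 was the reverse, with the lowest mitosis mean of the 9 libraries (6.20) and a replication mean of 6.92, under EV mouse 4 alone. Over both groups the mitosis means were 6.60 ± 0.26 (SD, n = 5) and 6.53 ± 0.10 (SD, n = 4) and the replication means 6.83 ± 0.11 (SD, n = 5) and 6.65 ± 0.27 (SD, n = 4). Of the mitosis genes 17 had a log2 fold change below 0 (median -0.06) and 0 passed the adjusted threshold. At an unadjusted p under 0.05, 1 of the 20 was lower, against 2.98% of all genes. Birc5, a subunit of the chromosomal passenger complex, had the smallest p of the mitosis genes (66.7 to 81.2 CPM with EV, 54.7 to 66.6 CPM with sgZrsr2, log2 -0.24, SE 0.10, edgeR adjusted p = 0.714). It was followed by the checkpoint kinase Bub1 (-0.25, SE 0.14) and the spindle factor Tpx2 (-0.21, SE 0.12).

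Other gene lists also set sgZrsr2 mouse 3 apart. A list of 15 quiescence and stem cell genes had its highest mean there, at 5.94 against 5.07 to 5.58 in the other 8 libraries. An example is Cdkn1b, an inhibitor of cyclin-dependent kinases, at 148 CPM against 70.8 to 106 CPM. Not every gene of the list was high there: Cdkn1a, another such inhibitor, was at 64.2 CPM against 53.5 to 338 CPM. The 8 tested erythroid markers had a mean of 5.20 in sgZrsr2 mouse 3, 4.53 in sgZrsr2 mouse 5 and 4.44 in EV mouse 5, against 1.25 to 1.74 elsewhere. The 12 tested megakaryocyte markers had means of 3.88, 4.29 and 3.57 in the same libraries, against 1.56 to 2.48 elsewhere. The 11 tested mature neutrophil markers had means of 3.82 in sgZrsr2 mouse 3 and 3.73 in EV mouse 5, against 0.15 to 2.44. Not every marker followed its list mean. The erythroid marker Tfrc spanned 179.7 to 270.4 CPM over the 3 libraries with high erythroid means and reached 486 CPM in EV mouse 3. Its log2 fold change (-0.51, SE 0.22, edgeR adjusted p = 0.714) was the only one of the 8 below 0. The megakaryocyte marker Selp spanned 78.7 to 125 CPM over those 3 libraries and reached 269.7 CPM in EV mouse 3. The neutrophil marker Lcn2 peaked in EV mouse 4 (44.4 CPM). The replication means of EV mouse 5 and sgZrsr2 mouse 5 were 6.86 and 6.73, inside the EV range, and that of sgZrsr2 mouse 3 was 6.25. As summed CPM the found erythroid markers ran from 418 to 610.0 with EV and from 389 to 734 with sgZrsr2. For megakaryocyte markers the sums were 268 to 486 and 488 to 713, and for mature neutrophil markers 35.9 to 204 and 44.5 to 241. A few genes of high level dominate the first 2 sums. In EV mouse 3, with the erythroid sum of 610.0, Tfrc was at 486 CPM, Car2 at 118 CPM and Car1 at 0.0935 CPM. In sgZrsr2 mouse 1, with a megakaryocyte sum of 528, Itga2b was at 235 CPM and Selp at 222 CPM. The lymphoid and the monocyte and dendritic cell lists had means of 2.90 and 5.65 in sgZrsr2 mouse 3, inside their EV ranges of 0.36 to 3.71 and 5.13 to 6.31. Slc4a1, the red cell anion exchanger, was at 9.27 CPM in sgZrsr2 mouse 3 and at 0 in 5 libraries. Hba-a1, an alpha globin, was at 19.4 CPM in sgZrsr2 mouse 3 and at 0.0555 to 4.57 CPM in the others. The granulocyte surface gene Ly6g was at 0 to 0.0556 CPM and the platelet collagen receptor gene Gp6 at 0 to 0.0291 CPM over all 9. The part of these markers in the low replication values was not tested.

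**Figure D5:**
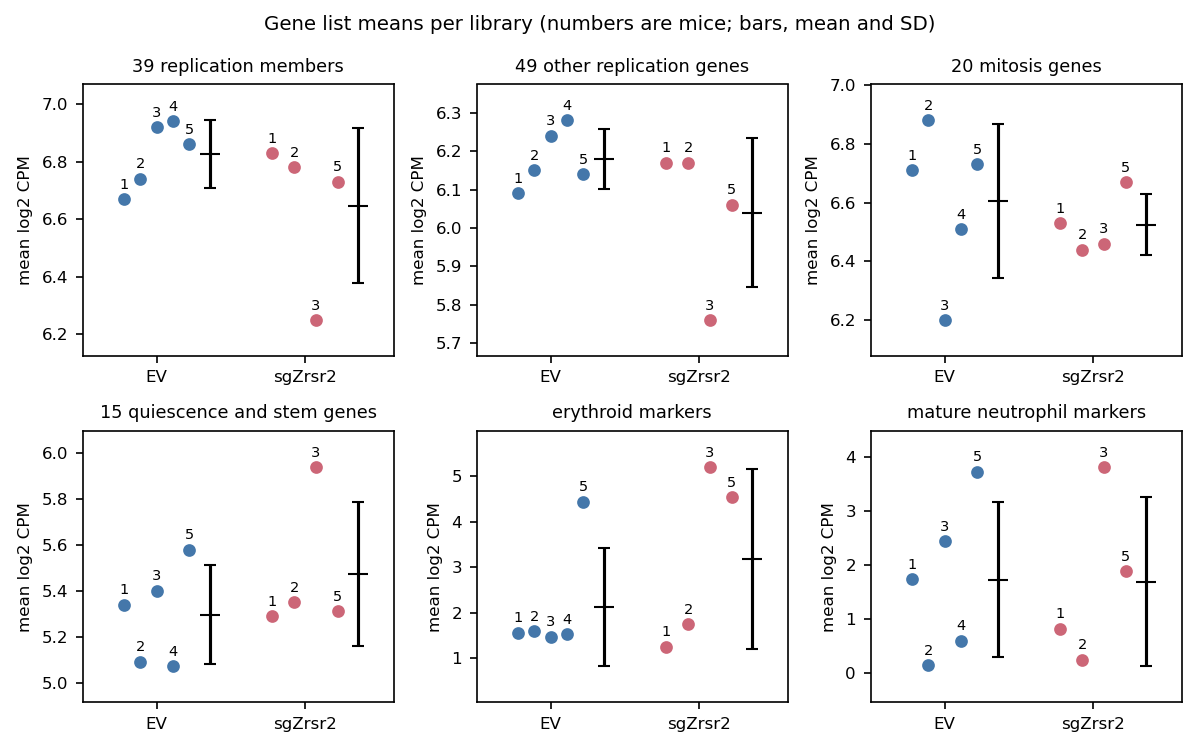
Mean log2 CPM of 6 gene lists in each library (y axis; points labelled by mouse number; bars, mean and SD of each group). Both replication lists put sgZrsr2 mouse 3 lowest (6.25 for the 39 members), the mitosis list puts it within the EV libraries, and the quiescence, erythroid and neutrophil lists put it highest.

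With EV mouse 5 and sgZrsr2 mice 3 and 5 left out together, the median log2 fold change of the members was -0.04, with 21 below 0 and 18 above, beside -0.03 over all genes. Cdc45 was then the only member at an unadjusted p under 0.05 in edgeR, against 11% of all genes in that fit. In limma-voom, which gives each library a weight for its quality, the median was -0.03 and 25 members were below 0. Of the members 3 (Cdc45, Rfc2 and Pola1) were then at an unadjusted p under 0.05, against 17.1% of all genes in that fit. In sgZrsr2 mouse 3 the median difference from the EV mean in log2 CPM was -0.55 over the 16 members with an E2F match (-1.25 to -0.21). It was -0.67 over the 16 without a match (-0.83 to -0.34) and -0.44 over the 7 with no promoter window (-0.92 to -0.17). A gene without these letters can still be an E2F target, and the part of E2F was not tested.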

How the data were processed

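RNA of sorted LSK cells was measured in 9 libraries made from 5 ng of total RNA with poly(A) selection, fragmentation and PCR enrichment without stated molecular identifiers, per the labels' protocols. The authors deposited RSEM expected counts per Ensembl gene, not normalized. RSEM 1.2.30, cutadapt 1.11 and the build GRCm38 are named in the submitters' processing notes; the aligner, annotation release and strandedness are not given in the sources used here. RSEM divides reads that fit several genes, so counts that are not whole (tolerance 0.005) mark shared reads.

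Expected counts were rounded, filtered with filterByExpr (minimum count 10, minimum total 15) and scaled by TMM (factors 0.894 to 1.07). Groups, taken from the titles, were compared with edgeR 4.0.16 in R 4.3.3 (quasi-likelihood test, Benjamini-Hochberg over 14944 genes, threshold 0.05); the SE is the fold change divided by the square root of F. Single genes were also compared by two-sided exact permutation over 126 splits. No batch is labelled. P-values cover the spread between these mice. Depth limits precision for genes of few counts. List means use log2 CPM with a prior count of 2. Promoters are RefSeq's (GRCm38.p6) and transcript lengths those of APPRIS principal transcripts in GENCODE M21.

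The members and gene lists were chosen with earlier results of these data known, and are no independent support for any direction. Values in every library are given for Mcm2 to Mcm7, Pcna, the member of each role with the highest CPM or the smallest p, and members whose groups do not overlap; Orc1 was added after its values were seen. From the 2 comparison lists the 3 genes with the smallest p are named. Alternatives were RLE and upper-quartile scaling, no filter, a filter of 1 CPM in 4 samples, DESeq2 1.42.0, limma-voom (limma 3.58.1) with quality weights, robust dispersion, counts not rounded, a block for mouse number, each library left out, sgZrsr2 mice 1 and 2 averaged and, added after the data were seen, 3 libraries left out together.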

Additional observations from a re-analysis of the deposited data

Results flagged for a closer look

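The members' values and their mean were searched, within EV and within sgZrsr2, for single libraries distant from their group, by the gap to the nearest other library over the group's range. Of 80 such sets 6 held one, and about 4 (1 in 20) arise by chance. In 4 of them the library was sgZrsr2 mouse 3. The mean log2 CPM of the replication members was 6.25 there and 6.73 to 6.83 in the other sgZrsr2 libraries. Mcm3 was at 292 CPM against 445 to 457 CPM, Mcm7 at 329 against 484 to 511 CPM and Pole at 120.4 against 173 to 178 CPM. Among the EV libraries Rfc2 was low in mouse 3, with 152 CPM against 182 to 193 CPM. Rpa3 was high in EV mouse 4, with 26.4 CPM against 19.4 to 20.9 CPM, which widens the gap between the groups for that gene. The sets share libraries, so they are not independent.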

How the results depend on the processing

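No member passed the adjusted threshold under any alternative run (adjusted p at least 0.203). The count of all genes past it was 0 except in DESeq2 (16) and with sgZrsr2 mice 1 and 2 averaged (1). Members at an unadjusted p under 0.05 were 3 in the reported test, 0 with the replicate block, 1 with the 3 libraries left out and 0 to 5 when single libraries were left out (0 without EV mouse 4 or sgZrsr2 mouse 3, 1 without EV mouse 3, EV mouse 5 or sgZrsr2 mouse 2, 5 without sgZrsr2 mouse 5). The share of all genes at that level also moved, from 6.85% to 2.28% with the block, 11% with the 3 libraries left out, and 4.12% (without EV mouse 4) to 8.73% (without EV mouse 5) when single libraries were left out. The block moved their median log2 fold change to -0.15; the labels give no shared source for equal mouse numbers, and same-numbered libraries had correlations of -0.227, -0.09, -0.404 and 0.369 between their deviations from the group means, so the numbers were not taken to pair the mice. Members below 0 were 34 in the reported test, 36 with upper-quartile scaling, 25 with limma-voom and 21 with the 3 libraries left out. With sgZrsr2 mice 1 and 2 averaged they were 39, with a median log2 fold change of -0.21. Those 2 libraries lay close together in some genes, such as Atad5 (151 CPM in both, 64.3 to 109 CPM elsewhere). They were less close in others, such as Orc1 (28.5 and 36.1 CPM), and the labels give no shared source. Over the fits without a library the members below 0 were 25 to 39 and the median -0.21 to -0.06. Log2 fold changes that changed sign were these. With limma-voom: Orc1 0.15, Mcm3 0.08, Mcm4 0.05, Mcm7 0.03, Mcm10 0.05, Gins2 0.08, Rpa2 0.15, Fen1 0.06 and Lig1 0.02. With the 3 libraries left out: Orc1 0.34, Mcm3 0.06, Mcm4 0.03, Mcm7 0.03, Mcm10 0.12, Gins2 0.03, Gins3 0.26, Prim2 0.03, Pole2 0.09, Rpa2 0.17, Fen1 0.15, Lig1 0.02 and Rrm1 0.0031. With mice 1 and 2 averaged: Orc6 -0.19, Cdt1 -0.05, Rfc3 -0.11, Pole -0.03 and Pold3 -0.01. With the replicate block: Gins3 0.0023, Rfc3 -0.0043, Pole -0.01 and Fen1 0.0043. With upper-quartile scaling: Orc6 -0.0042 and Rfc3 -0.0043. Over the fits without a library: Orc1 -0.39 to 0.16, Orc6 -0.23 to 0.21, Cdt1 -0.06 to 0.24, Mcm3 -0.19 to 0.01, Mcm10 -0.23 to 0.05, Gins2 -0.09 to 0.03, Gins3 -0.14 to 0.08, Rfc3 -0.14 to 0.15, Pole -0.04 to 0.13, Pole2 -0.15 to 0.03, Pold3 -0.01 to 0.13, Rpa2 -0.21 to 0.05, Fen1 -0.07 to 0.10, Lig1 -0.18 to 0.01. The cause was not tested.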
